A study of Mus musculus with 12 samples.

Results

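The 8 genes described here regulate cartilage cells or mark their last stage of maturation: Sox9, Sox5, Sox6, Trps1, Mef2c, Runx3, Snorc and Col10a1. They were taken by name from a table of 23358 gene rows, and all 8 were found and passed the filter on low counts, which kept 16190 genes. Of these, 7 were listed under their own symbol, and Snorc was matched through the older name 3110079O15Rik, a RefSeq synonym. The table came from RNA sequencing of the newborn mouse frontal bone, at postnatal day 3, with the nasal bone and the sutures beside it (coronal and frontonasal) left in. The groups were wild type C57BL/6 mice, C57BL/6 mice with 1 copy of the Crouzon allele Fgfr2 C342Y, wild type BALB/c mice and BALB/c mice with 1 copy of the same allele, with 3 samples in each. The allele is a missense change in a receptor for fibroblast growth factors and models a syndrome in which skull sutures close early.

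Total counts per sample ran from 27.2 M to 46.5 M. The labels number the C57BL/6 samples 1 to 3 (wild type) and 4 to 6 (mutant), and the BALB/c samples 13 to 15 (wild type) and 16 to 18 (mutant). They do not say whether these were separate animals or pools, so the p-values measure the spread between these samples. The strains were run on different flow cells, as the sample descriptions read, and strain and flow cell cannot be told apart. Summed Y-linked expression was 145 to 185 CPM (counts relative to the sample total, scaled by the TMM method) in replicates 1, 2, 3, 6, 15 and 16 and at most 1.36 CPM in the others, so all 3 C57BL/6 wild type samples and 1 of 3 in each other group carried it. Fgfr2 itself measured 249 CPM ± 35.8 (n = 3, SD) in C57BL/6 wild type and 361 CPM ± 20.6 (n = 3, SD) in C57BL/6 mutant samples (log2 0.54, adjusted p 0.00405, edgeR). It measured 282 CPM ± 11.4 (n = 3, SD) in BALB/c wild type and 299.9 CPM ± 25.0 (n = 3, SD) in BALB/c mutant samples (log2 0.09, adjusted p 0.800, edgeR).

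Cartilage cells arise when Sox9 switches on the genes for cartilage matrix, with Sox5 and Sox6 as its partners. In a growth plate these cells later swell, a stage called hypertrophy, and make type X collagen, which Col10a1 encodes. Mef2c and Runx factors drive that step, while Trps1, a GATA-type repressor, holds it in check. The roof of the skull forms mostly without a cartilage template. The nasal capsule and the skull base are cartilage, and the dissected piece lay next to the nasal capsule. Several of the 8 genes are also used outside cartilage: Mef2c in muscle, endothelium and bone cells, Runx3 in lymphocytes, Sox5 and Sox6 in neural and muscle cells, and Sox6 in red cell precursors.

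In C57BL/6, the mutation went with lower Col10a1, Sox9 and Sox5 and with higher Mef2c. Col10a1 was 9.37-fold lower in the mutants, Sox5 2.20-fold and Sox9 2.12-fold, and Mef2c was 1.44-fold higher. Snorc, Runx3, Trps1 and Sox6 did not pass the threshold, an adjusted p under 0.05 in edgeR over all genes tested. The 4 members called compare with 23.9% of all genes, 1 of 8 higher with 11.3% and 3 of 8 lower with 12.6%. The median log2 fold change of the members was -0.59, against -0.0040 over all genes. Mutant and wild type CPM ranges were apart for 7 members (Sox6 was the exception) and for 41.6% of all genes. With summed Y-linked expression as a covariate, 4 members were called.

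In BALB/c, none of the 8 genes was called between mutant and wild type by edgeR, against 0.136% of all genes, 0.0926% higher and 0.0432% lower. Sox5 alone had an unadjusted p under 0.05 (1 of 8, against 11.7% of all genes), and it was also the 1 member that DESeq2 called (1.94% of all genes). The members' median log2 fold change was 0.04, against 0.00 over all genes. The groups' ranges did not overlap for 1 member, Sox5, and for 20% of all genes. Sox9, Sox5 and Mef2c had genotype effects that differed between the strains by an interaction test, 3 of 8 members against 10% of all genes. Leaving out 1 replicate kept the Sox5 call in 12 of 12 fits, the Sox9 call in 4 and the Mef2c call in 3.

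**Figure D1:**
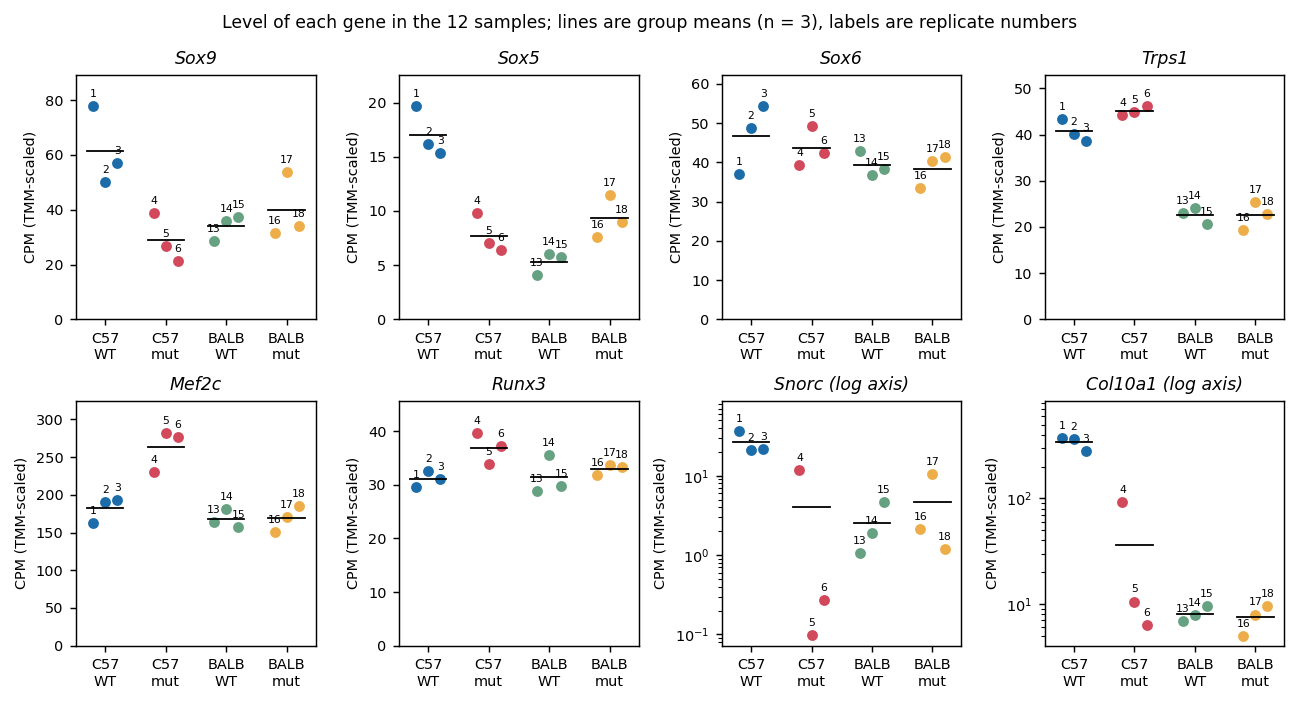
Level of each of the 8 genes in CPM (vertical axis, linear from 0 except the log axes of Snorc and Col10a1) in the 4 groups on the horizontal axis; each point is a sample with its replicate number and each line the mean of 3. Col10a1 is at 281 to 378 CPM in the C57BL/6 wild type samples and at 92.3 CPM or less in the other 9.

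Sox9 (chromosome 11, 112782210 to 112787757 in the authors' table) is the transcription factor that cartilage formation depends on. Its level was 77.7, 50.2 and 56.99 CPM in the C57BL/6 wild type samples and 38.9, 26.6 and 21.4 CPM in the mutants. Every mutant sample lay below every wild type sample. The log2 fold change was -1.09 (SE 0.248, adjusted p 0.0103, edgeR), and each of the 6 fits with 1 replicate removed kept the call. In a bulk sample, fewer cells of a type and less RNA per cell cannot be told apart. In BALB/c, Sox9 measured 28.5, 35.9 and 37.3 CPM in wild type and 31.7, 53.9 and 33.9 CPM in mutant samples. These ranges overlapped, and the high value was replicate 17. The log2 difference was 0.23 (SE 0.247, adjusted p 0.787, edgeR), and it was -0.05 without replicate 17.

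Sox9 belongs to the SoxE genes with Sox8 and Sox10, which act in glia and the neural crest. On a scale of CPM per kilobase of coding length, Sox9 made up 79.1% ± 0.900 (n = 3, SD) of their summed level in C57BL/6 wild type samples and 77.4% ± 5.69 (n = 3, SD) in the mutants. It made up 79.6% ± 0.909 (n = 3, SD) in BALB/c wild type samples. In BALB/c mutants the share was 55.0% in replicate 16, where Sox10 held 33.8%, and reached 85.2% in the highest sample. Replicate 16 also carried the highest summed glial markers, 541 CPM against 57.9 CPM or less in the other 11 samples. Its Sox9 level of 31.7 CPM was the lowest of its group.

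Sox5 (chromosome 6, 143828425 to 144209568) encodes a SoxD factor that binds DNA beside Sox9 at cartilage genes. It was the least expressed member per kilobase, at 2.32 CPM per kilobase in C57BL/6 wild type and 0.721 in BALB/c wild type samples. Its level was 19.6, 16.1 and 15.3 CPM in C57BL/6 wild type samples and 9.81, 7.03 and 6.36 CPM in the mutants. The groups did not overlap, and the log2 fold change was -1.14 (SE 0.202, adjusted p 0.00309, edgeR). It stayed a call in all 8 alternative analyses and with each of the 6 replicates removed in turn. In BALB/c the order was the other way round: 4.13, 5.99 and 5.74 CPM in wild type and 7.61, 11.5 and 9.01 CPM in mutant samples. Here too the ranges did not overlap, yet the log2 difference of 0.82 (SE 0.206) did not pass in edgeR (adjusted p 0.147) and passed in DESeq2 (adjusted p 0.0111). Over all 8 alternatives the adjusted p ran from 0.0111 to 0.197.

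The annotation of this locus bears on the Sox5 count. GENCODE lists 14 transcripts for the gene on GRCm38, and an antisense gene, Sox5os1, shares 1330 exonic bases with it on the opposite strand. The strand setting of the counting is not given in the sources used here, so reads of Sox5 and Sox5os1 in those bases cannot be told apart. RefSeq gives a promoter for 1 start of Sox5, which lies inside the interval of the authors' table. It is shown because Sox5 was the member with the largest interaction of genotype and strain among those called. The 250 bases before that start (GRCm38.p6, minus strand, chr6:143947107-143947356) follow, with the 1 match to a SOX motif in capitals. It begins at position -154, counted back from the start.
Sox5 promoter: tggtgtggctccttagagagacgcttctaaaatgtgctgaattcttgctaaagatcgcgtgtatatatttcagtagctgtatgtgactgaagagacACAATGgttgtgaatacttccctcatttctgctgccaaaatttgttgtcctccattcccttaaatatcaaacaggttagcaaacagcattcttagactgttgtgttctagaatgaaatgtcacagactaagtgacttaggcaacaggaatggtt

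Sox6 (chromosome 7, 115471344 to 116038744), the other SoxD partner of Sox9, did not pass the threshold in any of the 5 comparisons. It measured 37.1, 48.8 and 54.3 CPM in C57BL/6 wild type samples and 39.2, 49.2 and 42.5 CPM in the mutants. BALB/c wild type samples held 42.9, 36.7 and 38.4 CPM and BALB/c mutants 33.4, 40.4 and 41.3 CPM. The ranges overlapped in each comparison, and the genotype differences were -0.10 (SE 0.134, adjusted p 0.628, edgeR) in C57BL/6 and -0.03 (SE 0.135, adjusted p 0.965, edgeR) in BALB/c on the log2 scale. The summed erythroid markers, a list of which Sox6 is not a member, were 209 to 277 CPM in C57BL/6 wild type and 54.9 to 84.5 CPM in the mutants, and their part in the Sox6 level was not tested.

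The make-up of the SoxD genes (Sox5, Sox6 and Sox13) differed between groups, measured per kilobase. Sox5 held 16.9% ± 2.75 (n = 3, SD) of their summed level in C57BL/6 wild type and 9.21% ± 1.94 (n = 3, SD) in C57BL/6 mutant samples. It held 7.28% ± 1.59 (n = 3, SD) in BALB/c wild type and 11.5% ± 2.38 (n = 3, SD) in BALB/c mutant samples. The samples of C57BL/6 wild type, at 15.1% to 20.1%, lay above all others, the highest of which was replicate 17 at 14.1%. Sox6 and Sox13 held 39.9% and 43.1% in C57BL/6 wild type, 45.1% and 45.6% in C57BL/6 mutant, 46.6% and 46.2% in BALB/c wild type and 40.6% and 47.9% in BALB/c mutant samples.

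Trps1 (chromosome 15, 50654759 to 50890041) encodes the zinc finger repressor mutated in tricho-rhino-phalangeal syndrome. It was called between strains in both genotypes and between genotypes in neither strain. C57BL/6 samples held 43.4, 40.05 and 38.7 CPM in wild type and 44.2, 44.9 and 46.1 CPM in mutants. BALB/c samples held 22.9, 24.1 and 20.7 CPM in wild type and 19.4, 25.4 and 22.9 CPM in mutants. No BALB/c sample reached any C57BL/6 sample. The strain difference was -0.85 on the log2 scale in wild type (SE 0.0920, adjusted p 3.37e-05, edgeR) and -0.998 in mutants (SE 0.0913, adjusted p 1.09e-05, edgeR). Both calls were kept in every alternative and in every fit that left out 1 replicate. The genotype effect was 0.15 in C57BL/6 (SE 0.0897, adjusted p 0.251, edgeR), where the ranges did not overlap, and 0.0011 in BALB/c (SE 0.0924). The sign in C57BL/6 depended on the scaling, at -0.055 with total counts, where the median log2 fold change of all genes was -0.20. A microRNA gene, Mir1907, shares 25 exonic bases with Trps1 on the same strand.

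Mef2c (chromosome 13, 83504034 to 83667079) encodes a MADS-box factor needed for hypertrophy in the growth plate. Its level was 163, 190 and 193 CPM in C57BL/6 wild type and 230, 282 and 277 CPM in C57BL/6 mutant samples. The mutants were all higher, by 0.53 in log2 (SE 0.103, adjusted p 0.00509, edgeR), and it stayed a call in all 8 alternatives and with each of the 6 replicates removed. Col10a1, which Mef2c is known to activate in growth plates, went the other way in the same samples. In BALB/c, Mef2c measured 164, 181.7 and 157 CPM in wild type and 151, 171 and 186 CPM in mutant samples, with overlapping ranges and a log2 difference of 0.01 (SE 0.103, adjusted p 0.989, edgeR). The 2 wild type groups overlapped as well (log2 -0.12, SE 0.103, adjusted p 0.353, edgeR), and the C57BL/6 mutants lay above the other 9 samples.

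The relatives of Mef2c differed in direction in C57BL/6. Of these, Mef2a and Mef2d were higher in the mutants, by 0.57 (SE 0.114, adjusted p 0.00558, edgeR) and 0.35 (SE 0.0511, adjusted p 0.00125, edgeR) on the log2 scale. Mef2b, the least expressed of the family, was lower, at 6.62 CPM ± 2.76 (n = 3, SD) in wild type and 2.94, 0.0970 and 0.162 CPM in the mutants (log2 -2.62, SE 0.865, adjusted p 0.0462, edgeR). Mef2c held 31.7% ± 0.887 (n = 3, SD) of the summed Mef2 level per kilobase in C57BL/6 wild type and 34.4% ± 1.17 (n = 3, SD) in C57BL/6 mutant samples. Of 7 osteoblast markers, 5 were higher in the mutants and 0 lower, against 11.3% and 12.6% of all genes. The summed level of the 7 was 62045, 109462 and 108088 CPM in wild type and 117085 to 142000 CPM in mutant samples. Replicate 1 was far below the other wild types. Most of this sum was Col1a1, at 58981 to 105057 CPM in wild type and 111864 to 136653 CPM in mutants. Col1a1 was not among the 5 called (log2 0.49, SE 0.175, adjusted p 0.0594, edgeR). The summed endothelial markers were 424 to 502 CPM in wild type and 523 to 614 CPM in mutants. The summed muscle markers were 9.56, 80.9 and 3.38 CPM in wild type, where replicate 2 stood apart, and 1.601 to 5.17 CPM in mutants. No gene of the osteoblast or endothelial list was at 0 in any sample, and the part of these cell types in the Mef2c result was not tested.

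Runx3 (chromosome 4, 135120645 to 135177990) acts with Runx2 in cartilage maturation. It measured 29.5, 32.6 and 31.1 CPM in C57BL/6 wild type and 39.7, 33.8 and 37.2 CPM in C57BL/6 mutant samples. The ranges did not overlap, but the log2 difference of 0.25 (SE 0.0844) just missed the threshold, with an adjusted p of 0.0513 in edgeR. Of the 8 alternatives 2 called it, DESeq2 (adjusted p 0.0378) and limma-voom (adjusted p 0.0395). Over all 8 the log2 value ran from 0.058 to 0.26 and the adjusted p up to 0.669. Of the 6 fits that left out 1 replicate, only that without mutant replicate 5 called it (log2 0.31, adjusted p 0.0442, edgeR). BALB/c samples held 28.8, 35.6 and 29.8 CPM in wild type and 31.7, 33.7 and 33.3 CPM in mutants, and overlapped. Of the summed Runx level per kilobase, Runx3 held 12.6% ± 0.600 (n = 3, SD) in C57BL/6 wild type and 10.3% ± 0.929 (n = 3, SD) in C57BL/6 mutant samples, while Runx2, the osteoblast factor, held 70.5% and 76.1%. Runx2 was higher in the C57BL/6 mutants by 0.65 in log2 (SE 0.101, adjusted p 0.00160, edgeR). The summed T and NK cell markers stayed between 1.08 and 2.70 CPM in all 12 samples. Summed B cell markers were 9.92 to 19.7 CPM in C57BL/6 wild type and 7.08 to 10.2 CPM in C57BL/6 mutant samples. They were 32.9 to 36.2 CPM in BALB/c wild type and 49.5 to 67.2 CPM in BALB/c mutant samples. The part of lymphocytes in the Runx3 level was not tested.

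Snorc (chromosome 1, 87470264 to 87475459) encodes a small membrane proteoglycan made by cartilage cells. Its level was 36.3, 21.3 and 21.9 CPM in C57BL/6 wild type samples and 11.7, 0.0970 and 0.269 CPM in the mutants. The last 2 values rest on 4 and 10 counts, and replicate 4, at 518 counts, stood apart from them. All mutants lay below all wild type samples. The log2 fold change of -2.70 (SE 1.19) did not pass (adjusted p 0.113, edgeR) and was -7.18 without replicate 4 (adjusted p 0.000544, edgeR). BALB/c wild type samples held 1.05, 1.91 and 4.68 CPM and BALB/c mutants 2.16, 10.6 and 1.18 CPM, with replicate 17 the highest. The log2 difference in BALB/c was 0.86 (SE 1.21, adjusted p 0.851, edgeR) and -0.63 without replicate 17.

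Col10a1 (chromosome 10, 34389981 to 34397085) encodes type X collagen, the matrix protein that defines hypertrophic cartilage. Per kilobase it was the most expressed of the 8 genes in C57BL/6 wild type samples, at 109 CPM per kilobase ± 17.1 (n = 3, SD). The individual levels were 378, 369 and 281 CPM in C57BL/6 wild type and 92.3, 10.5 and 6.30 CPM in C57BL/6 mutant samples. No mutant came near a wild type sample, and replicate 4 lay well above the other mutants. The log2 fold change was -3.23 (SE 0.746, adjusted p 0.0108, edgeR). The call held with each of the 6 replicates removed, at -5.34 without replicate 4 (adjusted p 8.34e-07, edgeR). It was kept in 6 of the 7 alternatives that gave an adjusted p. The loss was in a fit of the 6 C57BL/6 samples alone (adjusted p 0.0811, edgeR). DESeq2 gave no adjusted p for Col10a1.

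BALB/c samples were all at the low end, with 6.91, 7.78 and 9.55 CPM in wild type and 4.98, 7.92 and 9.60 CPM in mutants. These groups overlapped, and the log2 difference was -0.10 (SE 0.807, adjusted p 0.988, edgeR). Wild type BALB/c lay 42.2-fold below wild type C57BL/6 (log2 -5.40, SE 0.849, adjusted p 0.000406, edgeR). C57BL/6 mutant replicate 6 lay inside the BALB/c range, replicate 5 just above it and replicate 4 far above it.

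The Col10a1 promoter is shown because this gene had the largest fold change of the members called in C57BL/6. RefSeq gives 1 start, at the start of the authors' interval, and the 250 bases before it (GRCm38.p6, plus strand, chr10:34389731-34389980) follow with the 1 match to a SOX motif in capitals, beginning at position -185 from the start.
Col10a1 promoter: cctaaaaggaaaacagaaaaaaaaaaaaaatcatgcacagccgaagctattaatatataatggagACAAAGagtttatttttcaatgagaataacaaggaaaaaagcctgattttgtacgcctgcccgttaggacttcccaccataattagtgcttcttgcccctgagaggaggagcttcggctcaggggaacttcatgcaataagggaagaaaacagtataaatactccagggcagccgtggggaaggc
The letters searched on both strands, from 250 bases before to 50 after each start, were ACAAAG and ACAATG for SOX factors, TGTGGT for RUNX factors and CTA and TAG with 4 free bases between them for MEF2 factors. Over 32851 mouse promoters of this length the shares with a match were 28.6%, 16.8% and 3.7%. The Col10a1 and Sox5 windows held no RUNX or MEF2 match, which says only that these letters are not in them. Sox6 had a SOX match at 5 of its 6 starts, a RUNX match at 2 and a MEF2 match at 1, Mef2c a SOX match at 2 of 3 starts, and Runx3 a RUNX match at 1 of 2. The other members, Sox9, Snorc and Trps1, have no entry. On GENCODE's annotation, Col10a1 has 1 transcript and shares 18 exonic bases with Nt5dc1 on the opposite strand, and without a strand setting the reads in those bases cannot be told apart.

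Ranked per kilobase, the members stood in a different order in the 2 strains. In C57BL/6 wild type samples Col10a1 (109 CPM per kilobase) was followed by Snorc (57.4), Mef2c (27.8), Sox9 (14.9), Runx3 (7.98), Sox6 (5.51), Trps1 (3.99) and Sox5 (2.32). In BALB/c wild type samples the order was Mef2c (25.5), Sox9 (8.18), Runx3 (8.07), Snorc (5.52), Sox6 (4.63), Col10a1 (2.58), Trps1 (2.21) and Sox5 (0.721). The neighbours Sox9 and Runx3 in BALB/c did not differ beyond their SDs of 1.14 and 0.942 CPM per kilobase, nor did Snorc, with an SD of 4.11, and either of its neighbours, Runx3 and Sox6 (SD 0.378). Col10a1 and Trps1 in BALB/c, at SDs of 0.429 and 0.170, were within their spread as well.

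Between the wild type groups, 5 of 8 members were lower in BALB/c and 0 higher, against 48.5% of all genes called, 25.6% lower and 22.8% higher. These were Col10a1, Snorc, Sox5, Sox9 and Trps1, the same 5 whose ranges did not overlap, as for 57.5% of all genes. The members' median was -0.86 on the log2 scale, against -0.0013 over all genes. Sox5 differed by -1.68 (SE 0.208, adjusted p 8.02e-05, edgeR) and Sox9 by -0.86 (SE 0.248, adjusted p 0.0133, edgeR). The Sox9 call was lost without wild type replicate 1 of C57BL/6 (log2 -0.65) or replicate 13 of BALB/c (log2 -0.75), each with an adjusted p of 0.0556 in edgeR. Snorc differed by -3.36 (SE 1.25, adjusted p 0.0422, edgeR), a call lost in each of the 6 fits that left out 1 replicate, where the log2 value was -4.14 to -3.01 and the adjusted p 0.0604 to 0.127. Sox6 did not pass (log2 -0.25, SE 0.135, adjusted p 0.148, edgeR) but did without replicate 1 (log2 -0.39, adjusted p 0.0213). The strain effect shares its 3 C57BL/6 wild type samples with the genotype effect in C57BL/6, so the lower values of both rest in part on the same samples.

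Between the mutant groups, 3 of 8 members were lower in BALB/c and 0 higher, against 36.9% of all genes called, 18.9% lower and 18% higher. They were Trps1, Mef2c (log2 -0.64, SE 0.103, adjusted p 0.000567, edgeR) and Col10a1 (log2 -2.27, SE 0.767, adjusted p 0.0358, edgeR). The ranges did not overlap for Trps1, Mef2c and Runx3, as for 50.2% of all genes. Col10a1 overlapped, since replicate 6 of C57BL/6 lay inside the BALB/c range. Its call rested on replicate 4, without which the log2 value was -0.15 (adjusted p 0.690, edgeR). It was also lost without BALB/c replicate 16, 17 or 18, at -2.06 (adjusted p 0.112), -2.31 (0.0893) and -2.49 (0.0682). Limma-voom and a fit of only the groups compared did not call Col10a1 either, and DESeq2 gave no adjusted p for it. Without replicate 4, 2 more differences passed: Sox9 was higher in BALB/c mutants by 0.74 (adjusted p 0.0286) and Snorc by 4.70 (adjusted p 0.00753), against 0.46 and 0.21 with it.

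**Figure D2:**
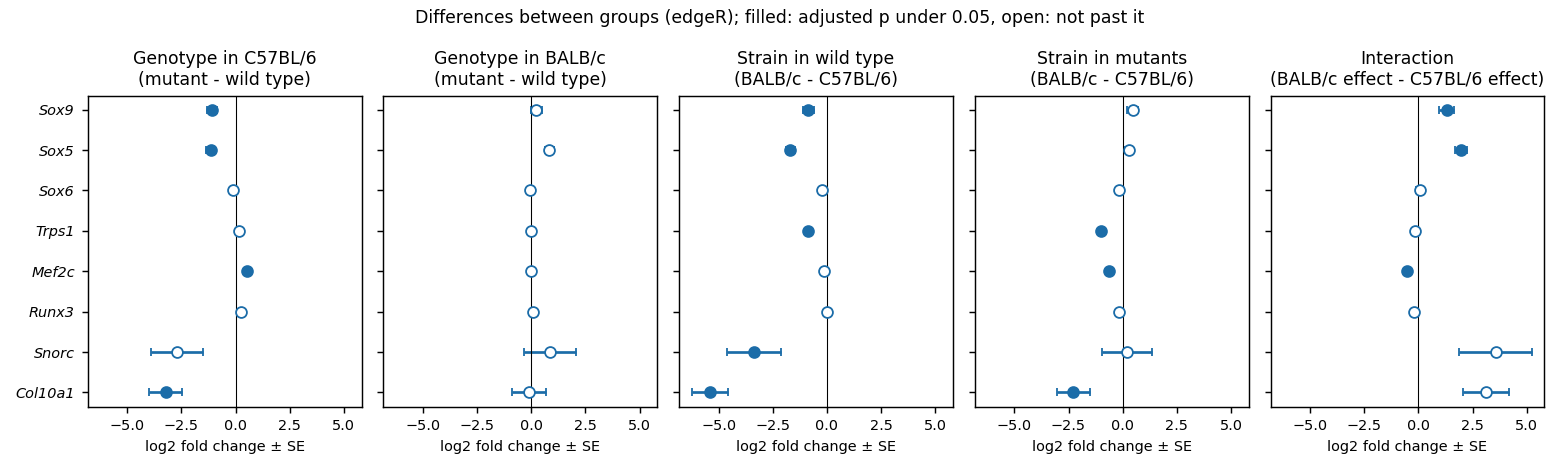
Log2 fold change (horizontal axis, bars ± SE) of each gene in the 5 comparisons, from 1 edgeR model of 12 samples; filled points have an adjusted p under 0.05. In C57BL/6, Sox9, Sox5 and Col10a1 are filled on the lower side and Mef2c on the higher side, and no point is filled in BALB/c.

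The interaction test compares the genotype effects of the 2 strains, and a constant flow cell effect cancels in it. The effect in BALB/c was the more positive for Sox5 by 1.96 in log2 (SE 0.288, adjusted p 0.00326, edgeR) and for Sox9 by 1.32 (SE 0.350, adjusted p 0.0379, edgeR). It was the more negative for Mef2c by 0.52 (log2 -0.52, SE 0.146, adjusted p 0.0452, edgeR). Higher interactions made up 5.46% and lower ones 4.58% of all genes. The members' median was 0.69, against 0.0074 over all genes. Sox5 kept its call in all 7 alternatives and all 12 fits that left out 1 replicate. Sox9 kept it in 4 of 12, and lost it without replicates 1, 5, 6, 13, 14, 15, 17 or 18, at log2 values of 1.04 to 1.42 and adjusted p of 0.0535 to 0.0867. Mef2c kept it in 3 of 12 and lost it without any of replicates 1, 2, 5, 6, 13, 14, 15, 16 or 17, at -0.56 to -0.43 and adjusted p of 0.0565 to 0.110. It was lost too with total-count scaling (log2 -0.29, adjusted p 0.106) and with the Y-linked covariate (log2 -0.47, adjusted p 0.0836). Total-count scaling put the median interaction of all genes at 0.24. Col10a1 (log2 3.12, SE 1.07, adjusted p 0.0817) and Snorc (log2 3.56, SE 1.68, adjusted p 0.180) did not pass, and both did without replicate 4, at 5.25 (adjusted p 2.06e-05) and 8.05 (adjusted p 0.00163).

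The authors' deposited table of DESeq2 comparisons gave the same signs in C57BL/6 with smaller log2 values for the genes that fell. In the authors' deposited table Col10a1 had a log2 value of -2.15 with no p-value, Sox5 -0.68 with a q of 0.0687 and Sox9 -0.52 with a q of 0.205. Mef2c had 0.51 with a q of 0.000220 in the authors' deposited table. Between the wild types, the authors' deposited table gave q-values of 0.245 for Sox9 and 0.210 for Snorc, which do not pass where edgeR did here, and 0.00102 for Sox5. For Sox5 in BALB/c the authors' deposited table gave a log2 value of 0.49 with a q of 0.581, which does not pass either, unlike DESeq2 here. Whether that table's fold changes were shrunken or filtered is not given in the sources used here.

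Cartilage matrix genes were counted beside the members, since many of them are known targets of Sox9; their summed RNA does not measure cartilage content independently of Sox9. Of 15 such genes, 6 were lower and 0 higher in C57BL/6 mutants (12.6% and 11.3% of all genes), with a median log2 fold change of -2.40. They included Acan, the aggrecan core protein (log2 -1.88, SE 0.402, adjusted p 0.00773, edgeR), and Col11a1, a minor fibril collagen (log2 -0.61, SE 0.130, adjusted p 0.00773, edgeR). Epyc and Chad, small matrix proteins, fell by 1.12 (SE 0.262, adjusted p 0.0116, edgeR) and 1.45 (SE 0.360, adjusted p 0.0149, edgeR). DESeq2 called 6 of the 15, against 27.6% of all genes, and limma-voom 13, against 29.1%. In this and the other DESeq2 counts, a gene to which DESeq2 gave no adjusted p counted as not called. In BALB/c, 0 of 15 passed in edgeR, DESeq2 or limma-voom, where 0.136%, 1.94% and 0.272% of all genes did, and 1 had an unadjusted p under 0.05 in edgeR, as 11.7% of all genes had. Between wild types 7 of 15 were lower in BALB/c and 0 higher, against 25.6% and 22.8% of all genes, with a median of -2.49. Between mutants 0 of 15 were called in edgeR, against 36.9% of all genes, with a median of 0.65. In the interaction Epyc alone was called, on the higher side as were 5.46% of all genes (log2 1.63, SE 0.374, adjusted p 0.0226, edgeR). DESeq2 called 3 of the 15 there and limma-voom 7, against 16.6% and 10.3% of all genes. An unadjusted p under 0.05 in edgeR was found for 14 of the 15, against 29.5% of all genes, and the median of the list was 3.38 on the log2 scale.

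Summed over the 15 genes, cartilage matrix expression was 13146, 11391 and 11420 CPM in C57BL/6 wild type and 8389, 5159 and 5414 CPM in C57BL/6 mutant samples. It was 5262, 5861 and 6252 CPM in BALB/c wild type and 5886, 11333 and 5743 CPM in BALB/c mutant samples. Replicate 17 of BALB/c was well above the rest of BALB/c and just below the C57BL/6 wild type samples, and replicate 4 lay between the wild type samples and the other mutants of C57BL/6. The list is uneven. Col11a2 did not pass in C57BL/6 (log2 0.24, SE 0.0989, adjusted p 0.1003, edgeR). It alone gave 3982 CPM of the sum in replicate 17, against 2691 to 3404 CPM in C57BL/6 wild type samples. In C57BL/6 mutants it was at 3395 to 3779 CPM. Col2a1 was at 3257 CPM or more in C57BL/6 wild type and at 83.6 to 1864 CPM in the mutants (log2 -2.51, SE 1.08, adjusted p 0.107, edgeR). The median log2 CPM of the list was 7.76 to 8.504 in C57BL/6 wild type. It was 6.75, 3.31 and 3.81 in mutant replicates 4, 5 and 6. No gene of the list was at 0 in any sample. A list of 6 genes of nasal glands and sustentacular cells separated the samples further, at 214 to 624 CPM in C57BL/6 wild type, 138 CPM in replicate 4, and at most 0.754 CPM in the other 8 samples. In each of those 8 samples 2 or more of the 6 genes were at 0, while in replicates 1 to 4 Scgb1a1 alone was. Summed olfactory neuron markers were 229 to 355 CPM in C57BL/6 wild type and 130 to 213 CPM in C57BL/6 mutants. They were 80.9 to 85.4 CPM in BALB/c wild type and 79.3 to 89.4 CPM in BALB/c mutants. Summed ciliated cell markers were 14.9 to 29.8 CPM in C57BL/6 wild type and 4.37 to 9.44 CPM in C57BL/6 mutants. In BALB/c they were 5.04 to 5.81 CPM in wild type and 5.08 to 6.90 CPM in mutants. The part of nasal tissue in the results for Col10a1, Snorc, Sox9 and Sox5 was not tested.

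**Figure D3:**
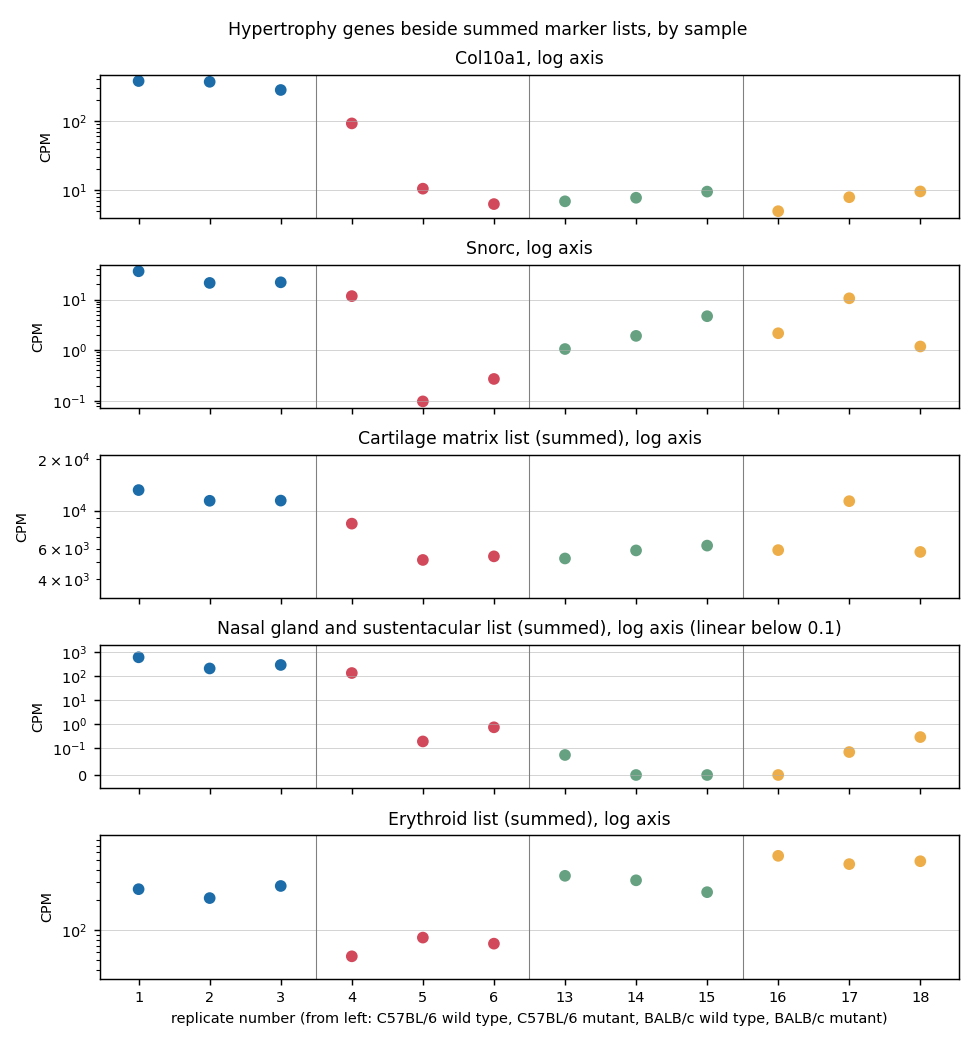
Col10a1, Snorc and 3 summed marker lists in CPM (vertical axes, log scale; the nasal list is linear below 0.1) for each replicate on the horizontal axis, from left C57BL/6 wild type, C57BL/6 mutant, BALB/c wild type and BALB/c mutant. Replicates 1 to 4 are high in the nasal gland list, at 138 CPM or more, and in Col10a1, while replicate 17 is high in cartilage matrix at 11333 CPM with Col10a1 at 7.92 CPM.

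To see whether a member followed the cartilage genes sample by sample, its log2 CPM was set against the median log2 CPM of the 15 matrix genes. Snorc kept a nearly fixed distance in C57BL/6 wild type samples, at -3.35 ± 0.04 (n = 3, SD), while the cartilage median itself ran from 7.76 to 8.504. Replicate 4 was at -3.19, and replicates 5 and 6, with few counts, were at -6.04 and -5.44. BALB/c samples were at -4.67, -4.50 and -3.50 in wild type and at -4.24, -3.85 and -4.98 in mutants, so all 6 lay below the C57BL/6 wild type samples. Among all genes with a mean of at least 5 CPM, those whose log2 CPM was most like Snorc over the 12 samples were Col9a2, Col9a1 and Col9a3, which encode the 3 chains of type IX collagen, at Pearson r of 0.989, 0.987 and 0.985.

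Col10a1 lay further from the cartilage median in BALB/c. Relative to the cartilage median it was at 0.37 ± 0.36 (n = 3, SD) in C57BL/6 wild type and -0.42 ± 0.64 (n = 3, SD) in C57BL/6 mutant samples. In BALB/c it was at -2.34 ± 0.28 (n = 3, SD) in wild type and -3.11 ± 1.13 (n = 3, SD) in mutant samples. All 6 C57BL/6 values, from -1.14 to 0.77, lay above all 6 BALB/c values, from -4.26 to -2.01. The lowest was replicate 17, whose cartilage median of 7.26 exceeded the 6.75 of C57BL/6 replicate 4 while its Col10a1 was 7.92 CPM against 92.3 CPM. The C57BL/6 wild type and mutant ranges overlapped on this scale. No test was run on these distances, and strain and flow cell cannot be told apart in them.

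**Figure D4:**
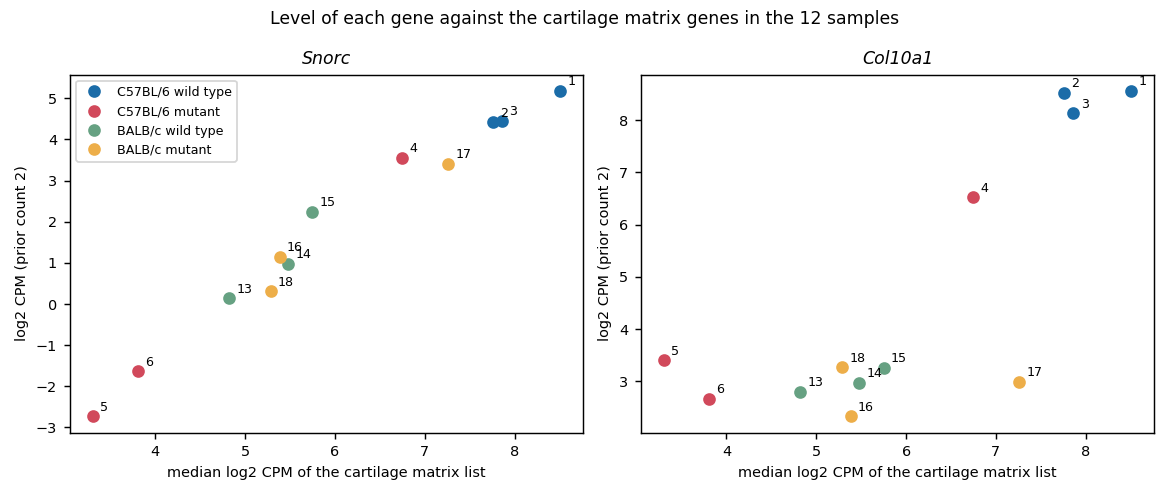
Log2 CPM (vertical axes) of Snorc and Col10a1 against the median log2 CPM of 15 cartilage matrix genes (horizontal axes), 1 point per sample with its replicate number, coloured by group. Snorc tends to be lower where the cartilage median is lower, and the BALB/c samples, replicate 17 at 7.26 included, lie low for Col10a1.

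On the same scale, the distance of Sox9 to the cartilage median was -2.12 ± 0.10 (n = 3, SD) in C57BL/6 wild type and 0.20 ± 1.49 (n = 3, SD) in C57BL/6 mutant samples, and -0.27 ± 0.27 (n = 3, SD) in BALB/c wild type samples. Since the cartilage median is subtracted and spans a wider range than Sox9, these distances largely follow that median. The gene most like Sox9 over the 12 samples was Hapln1, the link protein of cartilage (Pearson r 0.956), followed by Csgalnact1 (0.950) and Susd5 (0.946). Among the members themselves, Sox9 was most like Snorc (r 0.914) and Sox5 (r 0.840), and Sox5 was about as like Col10a1 (r 0.841). These values describe 12 samples that share strain and flow cell within groups, while the summed marker lists differed within as well as between groups.

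The other members had other neighbours. Col10a1 was most like Flrt1, Ces1d and Crmp1 (Pearson r 0.985, 0.985 and 0.984 over the 12 samples), none of which is on the cartilage list. Sox5 was most like Snx27 (0.969), Pik3c2b (0.958) and Dock8 (0.938), and Sox6 like Tnfaip1 (0.933), Igsf10 (0.923) and Canx (0.919). Trps1 had Tcf4 (0.990) and Setbp1 (0.988) among its nearest genes, and Mef2c had Prkch (0.983) and Ankrd28 (0.981). Runx3 was most like Ctgf (0.912), Scara3 (0.887) and Chn1 (0.885).

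Growth plate signalling and later hypertrophy genes gave a mixed picture around Col10a1. Of 17 such genes, 5 were higher and 2 lower in C57BL/6 mutants, against 11.3% and 12.6% of all genes. Ihh, the hedgehog ligand that prehypertrophic cells make, was 12.7 CPM ± 3.21 (n = 3, SD) in wild type and 3.48 CPM ± 0.848 (n = 3, SD) in mutants, the same direction as Col10a1 (log2 -1.87, SE 0.229, adjusted p 0.000463, edgeR). Mmp13, a collagenase of late hypertrophic cartilage and of osteoblasts, was higher instead, at 909 CPM ± 39.5 (n = 3, SD) against 1469 CPM ± 128 (n = 3, SD) (log2 0.69, SE 0.108, adjusted p 0.00167, edgeR). Spp1, made by the same 2 cell types, was higher by 0.94 (SE 0.123, adjusted p 0.000662, edgeR), and Pth1r, the receptor that delays hypertrophy and also serves osteoblasts, by 0.49 (SE 0.0782, adjusted p 0.00185, edgeR). In BALB/c, 0 of 17 were called in edgeR, where 4 had an unadjusted p under 0.05, and DESeq2 called 1 and limma-voom 0. The shares over all genes were 0.136%, 11.7%, 1.94% and 0.272% in that order.

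Between wild types, 5 of the 17 were higher and 5 lower in BALB/c, against 22.8% and 25.6% of all genes. Ptch1, the hedgehog receptor and target, was lower by 1.72 (log2 -1.72, SE 0.147, adjusted p 7.78e-06, edgeR), and Hdac4, which holds back Mef2c and Runx factors in cartilage cells, by 1.02 (log2 -1.02, SE 0.122, adjusted p 6.89e-05, edgeR). Hdac4 was lower in BALB/c mutants as well (log2 -0.98, SE 0.120, adjusted p 8.62e-05, edgeR), as Trps1 was. Of the 17, 2 were higher and 6 lower in BALB/c mutants, against 18% and 18.9% of all genes. In the interaction 2 were higher and 4 lower, against 5.46% and 4.58% of all genes, with Ihh at 1.64 (SE 0.321, adjusted p 0.0120, edgeR), Spp1 at -1.16 (SE 0.173, adjusted p 0.00346, edgeR), Pth1r at -0.55 (adjusted p 0.0132, edgeR) and Mmp13 at -0.61 (SE 0.152, adjusted p 0.0314, edgeR).

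Relatives of the members and the other GATA factors made another list, of which 15 of 17 were tested. In C57BL/6 mutants 4 were higher and 5 lower, against the same 11.3% and 12.6% of all genes. The erythroid factor Gata1 was at 5.19 CPM ± 1.63 (n = 3, SD) in wild type samples and at 1.06 CPM ± 0.0363 (n = 3, SD) in mutants (log2 -2.29, SE 0.259, adjusted p 0.000338, edgeR), and Gata2, its partner in blood progenitors, was lower too (log2 -1.80, SE 0.345, adjusted p 0.00469, edgeR). Trps1, an atypical member of that family, was not called in the same comparison. In BALB/c 0 of 15 were called by edgeR, with 4 at an unadjusted p under 0.05, and DESeq2 called 2 and limma-voom 1, against 0.136%, 11.7%, 1.94% and 0.272% of all genes. Between wild types 5 were higher and 7 lower in BALB/c (22.8% and 25.6% of all genes), and between mutants 4 were higher and 4 lower (18% and 18.9%). In the interaction 2 were higher (5.46% of all genes), Gata1 by 2.73 (adjusted p 0.00155, edgeR) and Gata2 by 2.18 (adjusted p 0.0206, edgeR), and 1 lower (4.58%), Mef2d (log2 -0.26, SE 0.0723, adjusted p 0.0441, edgeR), which had the same sign as Mef2c.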

How the data were processed

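Gene-level counts for the 12 samples were used as the authors deposited them, unnormalized. Every count was even, as would follow from counting each read of a pair. The submitters' processing notes name bcl2fastq, TopHat2 2.0.6, HTSeq, DESeq2 and the build mm10, without roles. The strand setting is not given in the sources used here. RPKM values deposited by the authors were not used. The p-values, q-values and log2 fold changes of the authors' deposited table, which its headers tie to DESeq2, are printed only where named.

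Genes were kept by filterByExpr (minimum count 10, minimum total 15), which left 16190, and TMM-scaled. A single edgeR 4.0.16 quasi-likelihood model (R 4.3.3) had a mean per group over all 12 samples. The Benjamini-Hochberg method adjusted p-values over all 16190 genes. Each SE is the one implied by the F statistic. Log2 CPM used a prior count of 2. Levels of different genes were compared per kilobase of the deposited coding length. The procedure was tested on simulated counts. Alternatives were DESeq2 1.42.0, limma-voom (limma 3.58.1), RLE or total-count scaling, no filter, halved counts, a Y-linked covariate, only the groups compared, and leaving out each replicate. Rows sharing an identifier (69) were kept apart by position. Of the value columns, 0 belonged to no sample.

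All 8 members are named in every comparison. Also named are the 3 genes most correlated with each member among those of at least 5 CPM, with predicted genes skipped; some of these neighbours are not reported here. From each pathway list, the rule names up to 4 called genes with the smallest adjusted p in a comparison. Not all of these are printed. Mef2a in C57BL/6, Mef2b, Col11a2, Col2a1 and Col1a1 fall outside it and were added after their values were seen. The members and lists were chosen with earlier results of these data known. Coordinates are those of the authors' table, which names no build. Promoters come from RefSeq on GRCm38.p6, with entries for 5 of the 8 members, and overlaps from GENCODE on GRCm38.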

Additional observations from a re-analysis of the deposited data

Results flagged for a closer look

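The genotype effect differed between the strains in a test of the difference itself for 3 of the 8 genes, against 10% of all genes tested. Of these 3, Sox5 alone kept its call in all 12 fits that left out 1 replicate. For Sox5 the effect in BALB/c exceeded that in C57BL/6 by 1.96 in log2 (SE 0.288, adjusted p 0.00326, edgeR), with all 3 C57BL/6 mutants below all 3 wild types and all 3 BALB/c mutants above theirs. For Sox9 the difference was 1.32 (SE 0.350, adjusted p 0.0379, edgeR), with all 3 C57BL/6 mutants below their wild types and overlapping ranges in BALB/c. That call was kept in 4 of 12 such fits. For Mef2c it was -0.52 (SE 0.146, adjusted p 0.0452, edgeR), with all 3 C57BL/6 mutants above their wild types and overlapping ranges in BALB/c. It was kept in 3 of 12 such fits, and lost with total-count scaling and with the Y-linked covariate. With total-count scaling Mef2c was at -0.29, where the median of all genes was 0.24. No separate test of single outlying samples was run.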

How the results depend on the processing

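No paired analysis was possible because no replicate number occurs in more than 1 group. In BALB/c, DESeq2 called 1 member against 0. Between wild types it called 3 against 5. In every comparison DESeq2 gave no adjusted p for Col10a1 and Snorc. Leaving out 1 replicate gave 3 to 4 members called between wild types (3 without BALB/c replicate 13) and 1 to 5 in the interaction (5 without C57BL/6 replicate 4).

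Total-count scaling moved the median log2 fold change of all genes by -0.20 in C57BL/6, where 13.2% of calls were then higher against 47.5%. It moved it by -0.12 and 0.11 between wild types and between mutants, where 31.2% and 67.8% of calls were higher, and by 0.24 in the interaction, where 90.5% were higher against 54.4%. It turned uncalled signs of Trps1 (-0.055 in C57BL/6, 0.089 in the interaction) and Runx3 (-0.095 between wild types, 0.044 in the interaction). The Y-linked covariate turned Runx3 between wild types (-0.023) and Trps1 in BALB/c (-0.0044).

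Leaving out 1 replicate turned further uncalled signs. In BALB/c the log2 ranges were -0.31 to 0.12 for Col10a1, -0.061 to 0.093 for Mef2c, -0.63 to 1.65 for Snorc, -0.090 to 0.062 for Sox6, -0.046 to 0.38 for Sox9 and -0.089 to 0.10 for Trps1. They were -0.087 to 0.072 for Runx3 between wild types, -1.29 to 4.70 for Snorc between mutants, and for Sox6 -0.22 to 0.023 in C57BL/6 and -0.052 to 0.19 in the interaction. In all, 517 of the other values kept direction and side of the threshold, 35 fell short of it, 13 passed it and 25 changed sign; the causes were not tested.

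The number of genes called was 3867 in C57BL/6 (1458 with only the groups compared to 4705 with limma-voom), 22 in BALB/c (4 with total counts to 314 with DESeq2) and 1626 in the interaction (1106 with the Y-linked covariate to 2683 with DESeq2). Leaving out 1 replicate moved it further: to 2184, 2285 and 1724 in C57BL/6 without replicate 1, 5 or 6; in BALB/c to 0 without 13 or 15, 95 without 14, 6 without 16 and 2 without 17 or 18; and in the interaction to 624 to 1019 without any of 1, 5, 6 and 13 to 18 and 3129 without 4. Depth limits Snorc most, at 4 to 10 counts in 2 samples.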
